A study of Drosophila melanogaster with 3 samples.

Results

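Distal intronic peaks of the transcription factor Broad are described here: peaks whose summit lay inside a gene, in no exon, and more than 5000 bp from every annotated transcription start site (TSS). There were 241 of them among the 2510 nuclear peaks of a list of 2533 peaks. The data came from chromatin immunoprecipitation followed by sequencing (ChIP-seq) in whole wandering larvae of Drosophila melanogaster, in the third instar, with both sexes pooled. The flies carried a stable transgene, strain br-re-GFP, that expresses the form br-RE of Broad with eGFP at its C-terminus, and an antibody against GFP was used. The 3 biological replicates, numbered 2 to 4, form 1 group, and no untreated or untagged group was analysed here, so no comparison between conditions was made. The labels do not state the driving promoter of the transgene, and which zinc fingers the tagged form carries was not established here. Whole animals mix all larval tissues, so a peak cannot be assigned to a cell type.

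Broad is a zinc finger protein of the BTB family that the moulting hormone ecdysone induces at the onset of metamorphosis. Its isoforms share a BTB domain and differ in the pair of zinc fingers that contacts DNA. Long introns of developmental genes in flies often hold enhancers and alternative promoters, and the rule used here keeps the summits outside exons and more than 5 kb from known TSSs, with no distance set from exons. Whether any of these sites acts as an enhancer was not measured.

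The sequence at the summit is given first for the 8 distal intronic peaks of highest signal that were found in all 3 replicates and lie on arms 2L, 3L, 3R or X. They show what the sites of highest and most repeatable rank look like. Each line reaches 100 bp to either side of the summit, 5′ to 3′ on the plus strand of dm6, from the RefSeq copy of the assembly. Capitals mark the core words of the 4 Broad zinc finger classes on either strand (AGACAA for Z1, CTATTT for Z2, AAACTA for Z3, GTAAACA for Z4), which are simplified letters chosen for the search and not binding sites shown by these data.
CG32486, chr3L:3060717-3060917: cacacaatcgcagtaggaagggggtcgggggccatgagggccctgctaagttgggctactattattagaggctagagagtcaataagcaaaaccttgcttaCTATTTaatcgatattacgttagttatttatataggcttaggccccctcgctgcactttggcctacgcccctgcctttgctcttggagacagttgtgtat
Eip75B, chr3L:18011808-18012008: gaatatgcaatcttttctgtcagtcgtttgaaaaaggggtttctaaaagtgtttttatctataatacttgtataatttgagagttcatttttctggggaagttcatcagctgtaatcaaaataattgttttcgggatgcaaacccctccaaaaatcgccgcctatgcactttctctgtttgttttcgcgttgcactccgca
Raf, chrX:2300633-2300833: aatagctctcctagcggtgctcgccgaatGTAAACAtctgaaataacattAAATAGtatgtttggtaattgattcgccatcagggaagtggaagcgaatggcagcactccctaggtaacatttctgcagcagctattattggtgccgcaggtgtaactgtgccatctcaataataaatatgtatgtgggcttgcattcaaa
Mi-2 and Su(Tpl), chr3L:19903168-19903368: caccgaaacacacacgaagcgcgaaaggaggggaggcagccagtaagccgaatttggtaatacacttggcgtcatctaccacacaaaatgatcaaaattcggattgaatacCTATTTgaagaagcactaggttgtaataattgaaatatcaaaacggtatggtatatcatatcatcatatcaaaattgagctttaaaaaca
gpp, chr3R:6424013-6424213: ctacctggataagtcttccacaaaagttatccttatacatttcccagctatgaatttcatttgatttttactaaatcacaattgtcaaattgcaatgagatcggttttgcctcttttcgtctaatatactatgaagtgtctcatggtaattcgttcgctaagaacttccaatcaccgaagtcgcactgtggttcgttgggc
Hr4, chrX:1951828-1952028: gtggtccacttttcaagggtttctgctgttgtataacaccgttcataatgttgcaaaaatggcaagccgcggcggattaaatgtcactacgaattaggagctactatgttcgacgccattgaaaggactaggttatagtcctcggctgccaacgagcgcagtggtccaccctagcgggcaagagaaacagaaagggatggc
Dad, chr3R:17065042-17065242: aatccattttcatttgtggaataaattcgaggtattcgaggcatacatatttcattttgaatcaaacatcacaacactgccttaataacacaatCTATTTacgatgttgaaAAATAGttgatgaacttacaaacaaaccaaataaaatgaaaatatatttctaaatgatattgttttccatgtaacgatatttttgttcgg
CG42238, chr2L:21009409-21009609: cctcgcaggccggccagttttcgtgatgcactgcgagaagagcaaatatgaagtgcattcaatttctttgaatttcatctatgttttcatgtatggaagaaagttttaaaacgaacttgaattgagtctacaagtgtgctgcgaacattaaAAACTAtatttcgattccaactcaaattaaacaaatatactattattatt
The windows at Raf and Dad held 2 cores each, those at CG32486, Mi-2 and CG42238 held 1 each, and those at Eip75B, gpp and Hr4 held none. No core letters in a window of this width says nothing of Broad at that site.

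The authors gave each region a signal value and ranked each list by it. The optimal list is the authors' final peak set, derived from the replicates and their pool, and each replicate list held 30000 regions that run down to weak ones. The 2533 strongest regions of a replicate are called its top regions, and a peak counted as found in a replicate when a top region had its summit within 200 bp. Read depth is unknown for these lists. Rank 1 is the strongest region of a list. Ranks also count regions outside the nuclear chromosomes: of ranks 1 to 500, 481, 471 and 500 were nuclear in replicates 2, 3 and 4. Small differences in rank between replicates can therefore come from these regions.

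Distal intronic peaks made up 9.6% of nuclear optimal peaks (95% exact binomial interval 8.48 to 10.8, counting error only). Among the other peaks, 427 (17%) were intronic and 1 to 5 kb from a TSS, 247 (9.84%) were intergenic, 1573 (62.7%) lay within 1 kb of a TSS and are called promoter peaks, and 22 lay in exons. By the same rule, 10.1% of the nuclear top regions of replicate 2, 6.8% of those of replicate 3 and 11.6% of those of replicate 4 were distal intronic, a mean of 9.49% ± 2.44 (SD, n = 3). Replicate 3 gave the lowest share of distal intronic regions and the highest share of promoter regions, 70.2%, against 60.3% in replicate 2 and 58.9% in replicate 4.

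The sequence open to the rule (inside a gene, outside exons, more than 5000 bp from every TSS) amounted to 29.3 Mb, or 21.3% of the nuclear assembly. Distal intronic peaks thus lay at 8.22 per Mb of this eligible sequence. By arm there were 50 on 2L (12 per eligible Mb), 62 on X (11.5), 44 on 3L (8.13), 34 on 2R (6.96) and 51 on 3R (6.16). None of the 241 lay on chromosome 4 or on Y, which hold 0.266 and 0.925 Mb of eligible sequence. The place of X was not shared by the replicates: X held 17.7% of the distal intronic top regions of replicate 2, 26.5% of those of replicate 3 and 30.4% of those of replicate 4, where 18.4% of eligible sequence lies.

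Strength did not set distal intronic peaks far apart from the other classes within the optimal list. Their signal ran from 88.8 to 834, with a median of 123 and a median rank of 1370. The median rank was 1214 for intronic peaks 1 to 5 kb from a TSS, 1375 for intergenic peaks and 1260 for promoter peaks. At the very top they were few: 4 of the 100 strongest peaks were distal intronic. Promoter peaks numbered 63, intronic peaks 1 to 5 kb from a TSS 15, intergenic peaks 3 and exon peaks 0. The rest of the 100 were among the 23 peaks outside the nuclear chromosomes, so these counts are not shares of nuclear peaks.

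Beyond the optimal list the distal intronic share grew as the regions weakened. In the pooled list it was 7.87% among ranks 1 to 500, 9.04% among ranks 501 to 1000, 10.5% among ranks 1001 to 2000, 11.3% among ranks 2001 to 5000 and 18.6% among ranks 20001 to 27389. Among ranks 1 to 500 it was 9.98% in replicate 2, 5.73% in replicate 3 and 6% in replicate 4, and among ranks 20001 to 30000 it was 15.8%, 17.5% and 22.3% in the same replicates. The weakest bin was the highest in all 3 replicates, and replicate 4 stood at 16.5% already among ranks 2001 to 5000. The shares of the other classes away from promoters also grew: between ranks 1 to 500 and ranks 20001 to 27389 of the pooled list, intronic regions 1 to 5 kb from a TSS had 14.7% and 22.5%, intergenic regions 9.11% and 18.2%, and exons 1.04% and 10.4%, while promoters had 67.3% and 30.4%. The pooled list held 4220 regions (15.4%) that meet the position rule, so the 241 described here are its strong end.

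**Figure D1:**
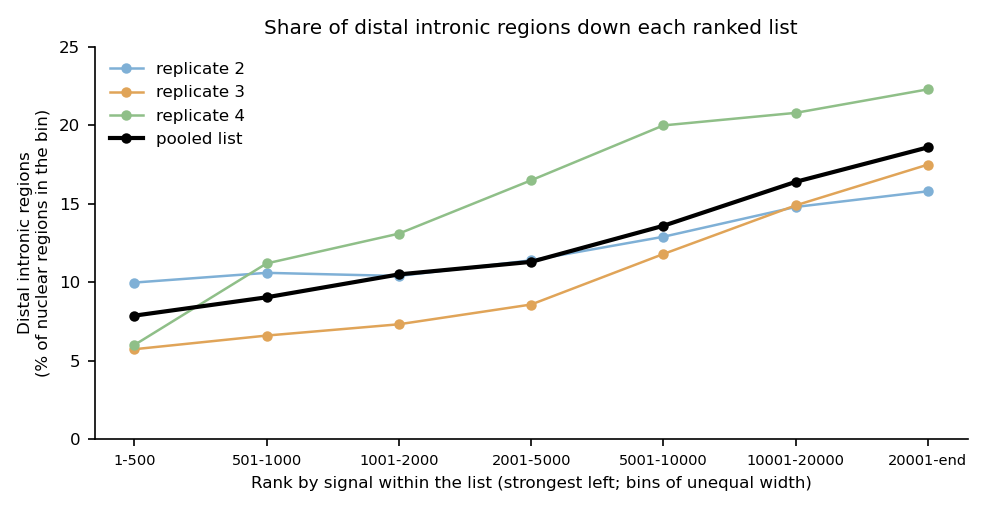
Share of distal intronic regions (percent of the nuclear regions in a bin, y axis) by rank within each list (x axis, strongest left, bins of unequal width). The black line is the pooled list and the coloured lines are the 3 replicates; in each the last bin is the highest, 18.6% in the pooled list.

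The strongest distal intronic peak lay in CG32486, with a signal of 834 and rank 18 in the optimal list. It ranked 30 in replicate 2, 31 in replicate 3 and 8 in replicate 4, so all 3 replicates placed it near the top. Its summit lay in an intron of CG32486 but 5738 bp from the TSS of another gene, CG16753, which was the nearest.

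The next was in Eip75B, an ecdysone-induced nuclear receptor gene, with a signal of 584 and rank 44. It ranked 39, 46 and 88 in replicates 2, 3 and 4, and it lay 12087 bp from the nearest TSS, one of Eip75B itself. A peak in Raf, the kinase of the MAP kinase cascade downstream of Ras, had a signal of 518 and ranked 47, 135 and 50. A peak inside both Mi-2, a nucleosome remodelling ATPase, and Su(Tpl), a transcription elongation factor of the ELL family, had a signal of 490 and ranked 72, 153 and 52. These 4 were the distal intronic peaks among the 100 strongest.

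Among the peaks that followed, gpp encodes the histone methyltransferase Dot1, and its peak ranked 65, 598 and 128 in replicates 2, 3 and 4. Hr4, a nuclear receptor gene of the ecdysone cascade, held a peak that ranked 103, 272 and 132. Dad, the inhibitory Smad of BMP signalling, held one that ranked 86, 145 and 337. All of these stayed inside the top regions of every replicate, with replicate 3 giving the weakest rank at gpp and Hr4 and replicate 4 at Dad.

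The other hosts of the 20 strongest were CG42238, Ptp61F (a tyrosine phosphatase), Pgant9 (a glycosyltransferase of O-linked sugars), CG32369, Hr4 again, RhoGAP19D, shn (a zinc finger protein of BMP signalling), kirre (an adhesion protein of myoblast fusion), CG13917, Prosap (a synaptic scaffold of the Shank family), Prp16 (a splicing helicase), fz (a receptor of tissue polarity and Wnt) and ush (a GATA cofactor). The peak in fz was the exception among the 20 strongest: it ranked 267 in replicate 2 and 196 in replicate 4 but 3234 in replicate 3, outside its top regions. The other 19 were found in all 3.

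Across all 241, 82 were found in all 3 replicates (34%, exact interval 28.1 to 40.4), against 38.5% of all nuclear optimal peaks. A further 83 were found in 2 replicates, 66 in 1 and 10 in none. When any listed region was accepted in place of a top region, 217 had a summit within 200 bp in all 3 replicates. Recovery followed strength: 51 of the strongest 60 were found in all 3 replicates, 26 of the next 60, 3 of the third 60, and 2 of the remaining 61, whose signal was 102 or less. Most peaks of the weaker part of the set were thus found in 2 replicates or fewer. The optimal list was made from these replicates, so recovery is no independent test of it. Shares of all nuclear optimal peaks by strength, or with any listed region, are not given here. Nothing in these counts marks the fall with strength as particular to distal intronic peaks.

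Of the 241, 179 were found in replicate 2 (74.3%, against 70.1% of all nuclear optimal peaks), 128 in replicate 3 (53.1%, against 67.6%) and 171 in replicate 4 (71%, against 68.6%). Mean recovery was 66.1% ± 11.4 (SD, n = 3 replicates). It differed by -5.08 points from that of intronic peaks 1 to 5 kb from a TSS (71.2% ± 6.7), with distal intronic peaks the lower in 3 of 3 replicates (exact two-sided sign-flip permutation p = 0.25, Benjamini-Hochberg adjusted over 3 comparisons 0.75). It differed by -0.688 points from that of intergenic peaks (66.8% ± 11, exact permutation p = 1, adjusted 1) and by -2.65 points from that of promoter peaks (68.8% ± 3.35, exact permutation p = 1, adjusted 1). With 3 replicates the test cannot go below 0.25. In replicate 3 alone, distal intronic peaks trailed promoter peaks, 53.1% against 72.5%, and in the other replicates they led, 74.3% against 66.1% and 71% against 67.6%. Without replicate 3 the difference from promoter peaks was 5.74 points, in the other direction.

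**Figure D2:**
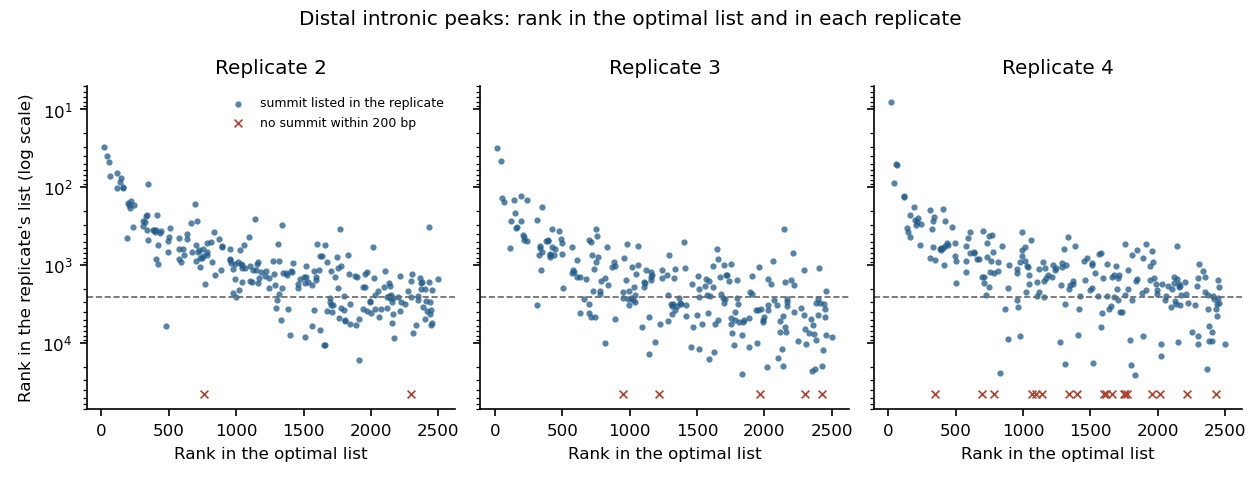
Rank of each of the 241 distal intronic peaks in the optimal list (x axis) and in each replicate's own list (y axis, log scale, strongest at the top). The dashed line is rank 2533, the limit of the top regions, and crosses are peaks with no summit within 200 bp among a replicate's 30000 regions; the points spread below the line mainly at weak optimal ranks, and most widely in replicate 3.

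The position of the summits inside genes was described next. Distances to the nearest TSS ran from 5009 to 43477 bp with a median of 9461 bp, and 106 lay beyond 10000 bp and 35 beyond 20000 bp. The introns were long, with a median of 19639 bp. The largest distance belonged to a weak peak in mamo, a BTB zinc finger gene, with ranks of 2583, 6660 and 1469 in replicates 2, 3 and 4.

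Of the 241 summits, 134 (55.6%) lay in the first intron of at least 1 transcript, whereas 30.9% of eligible sequence does. The nearest TSS belonged to a gene other than the host for 101 summits (41.9%). All but 15 lay inside a single gene, and 236 had a protein-coding host.

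At the threshold itself, peaks in Tis11 and cv-c lay just inside, 5009 and 5012 bp from a TSS, with signals of 89.8 and 173. Peaks in dnt and Nuak lay just outside, at 4999 and 4987 bp, with signals of 108 and 133.

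Distal intronic peaks were the class with the lowest share of close neighbours among these 4 classes. Another optimal summit lay within 5000 bp of 84 of them (34.9%), against 59.5% of intronic peaks 1 to 5 kb from a TSS, 48.2% of intergenic peaks and 43% of promoter peaks. Among peaks found in all 3 replicates the shares were 23.2%, 34.4%, 37.2% and 29.5% in the same order. Distal intronic peaks remained the lowest there, while intergenic peaks passed intronic peaks 1 to 5 kb from a TSS. The rule keeps these peaks away from every TSS, and how far that sets the shares was not tested. Their median distance to the next optimal summit was 9126 bp, and 9 of the 241 overlapped another optimal peak.

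A gene was called eligible when it contains any sequence open to the rule. Of 1824 such genes, 171 (9.38%) hosted a distal intronic peak, and of the 1775 protein-coding ones, 164 did (9.24%). In the replicates' own top regions, 8.56%, 6.87% and 11% of eligible protein-coding genes hosted one in replicates 2, 3 and 4. There were 120 hosts with 1 such peak, 34 with 2 and 17 with 3 or more, and these 17 held 66 of the 241.

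Hosts were long genes. Protein-coding hosts had a median length of 39874 bp, against 20546 bp for the other eligible protein-coding genes. Genes were divided into 3 length classes of equal number by their eligible sequence, and 18.8% of the upper class, 7.78% of the middle class and 1.18% of the lower class were hosts. Length is thus a background for every gene list below.

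Host genes and other eligible genes were also compared at their promoters. A promoter peak, with a summit within 1 kb of a TSS of the gene, was present at 55 of 164 protein-coding hosts (33.5%, exact interval 26.4 to 41.3), against 259 of 1611 other eligible genes (16.1%, 14.3 to 18) and 17.7% of all. Within the upper length class the shares were 36% of 111 hosts and 12.5% of 481 others. Among peaks found in all 3 replicates only, they were 9 of 69 hosts (13%) and 133 of 1706 others (7.8%).

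Eip75B, kirre and sbb held the most, 6 each. The 6 in Eip75B spanned 27.5 kb, and 5 of them lay between 44.905 and 57.049 kb from the gene's 5′ end, in the intron between the TSSs at 38.664 and 64.875 kb. The strongest, at 52.788 kb, was the one of rank 44, and its neighbour at 55.506 kb ranked 379, 490 and 642 in replicates 2, 3 and 4. The other 4 were found in at most 1 replicate each, so 2 of the 6 are shared by all replicates.

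The 6 in sbb, which encodes the transcriptional corepressor Scribbler, spanned 11.2 kb in its large first intron, 12.791 to 23.984 kb from the 5′ end. All 6 were found in all 3 replicates. Their optimal ranks ran from 335 to 1509, and the strongest ranked 351, 573 and 271 in replicates 2, 3 and 4. The pair at 14.55 and 14.751 kb lay close enough to match the same region in replicate 3, so they may not be separate sites.

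The 6 in kirre lay in a stretch of 36.8 kb in a gene of 394.148 kb, at 276.293 to 313.08 kb, and 3 of them were found in all 3 replicates. Its strongest ranked 151, 439 and 248. Since kirre holds 226 kb of eligible sequence, its density was 2.65 per 100 kb, against 17.5 per 100 kb in Eip75B.

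Next came tara and heca with 5 each. Gene tara encodes a protein of the SERTAD family linked to trithorax group function, and none of its 5 was found in all 3 replicates. Its strongest, of optimal rank 476, ranked 362 in replicate 3 and 320 in replicate 4 but 5931 in replicate 2. In heca, known as headcase and expressed in imaginal cells, 1 of 5 was found in all 3 replicates. Hr4 held 4, of which 3 were found in all 3 replicates, and all 3 lay between 5.772 and 9.988 kb from its 5′ end.

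The other genes with 4 were tai, Snoo (a corepressor of the Ski and Sno family), ds (a protocadherin of tissue polarity) and the noncoding lncRNA:CR44999. Those with 3 that the naming rule takes were gpp, fz, CG12535, simj (a subunit of the Mi-2 complex) and sba. The 3 in CG12535 also lie in lncRNA:CR44999 and are counted for both. None of the 4 in ds and none of the 3 in fz was found in all 3 replicates, while 2 of the 4 in Snoo and 2 of the 3 in simj were. One region of replicate 4 matched a pair of peaks in simj, as at sbb.

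**Figure D3:**
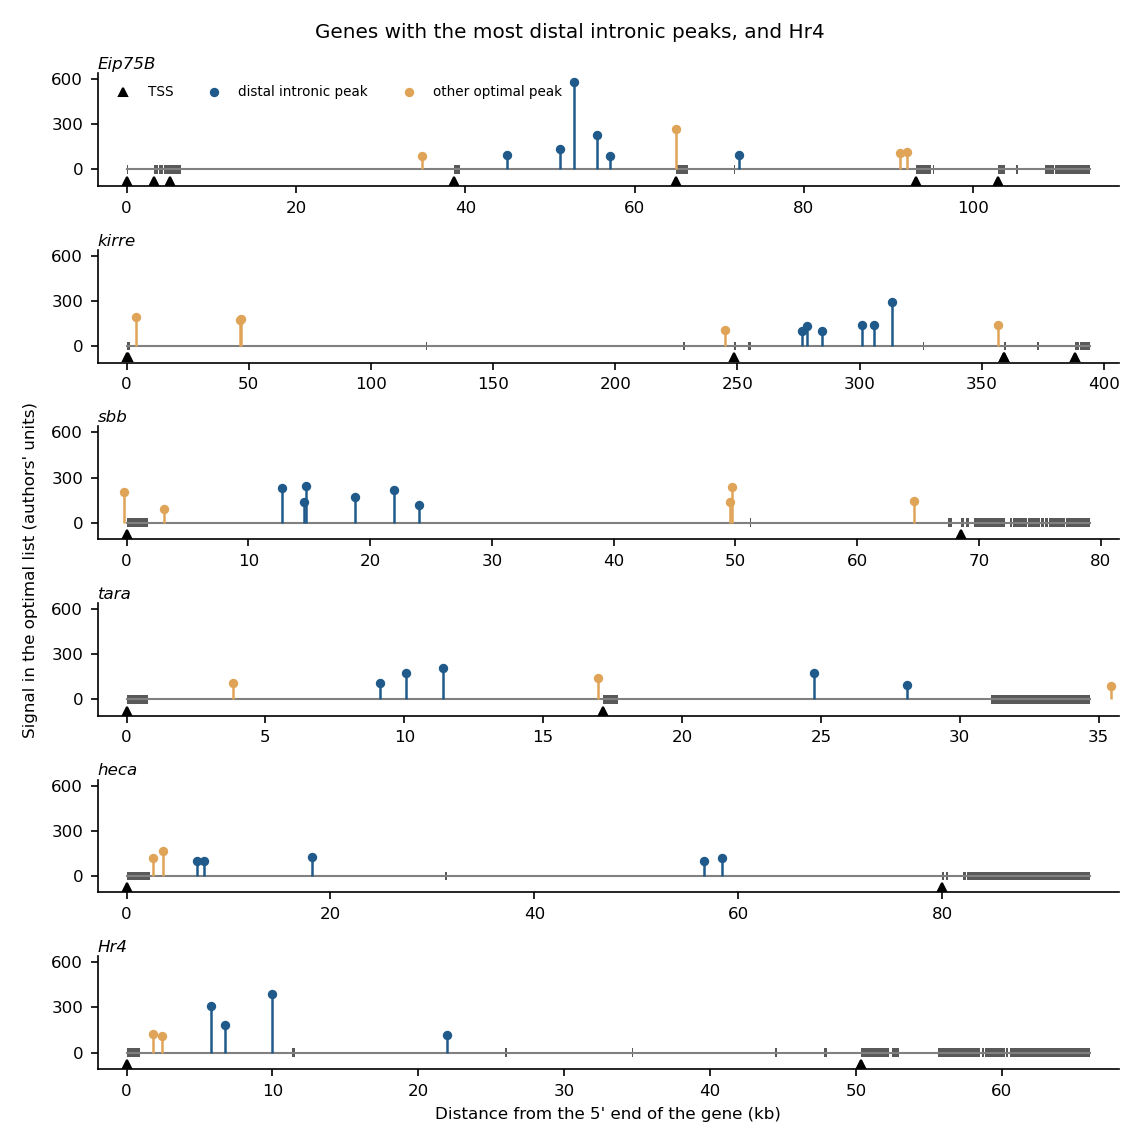
Signal of optimal peaks (y axis, authors' units) along 6 genes (x axis, kb from the 5′ end of the gene): Eip75B, kirre, sbb, tara, heca and Hr4. Blue stems are distal intronic peaks, orange stems other optimal peaks, grey blocks exons and triangles TSSs; the 6 blue stems of sbb stand together at 12.791 to 23.984 kb, and those of Eip75B mostly between a pair of TSSs.

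Genes of the ecdysone response, through which Broad itself is induced, were frequent hosts. Of 27 listed genes 17 were eligible, and 10 of these (58.8%, exact interval 32.9 to 81.6) hosted a distal intronic peak, against 9.24% of eligible protein-coding genes. In the replicates' own top regions 11, 7 and 9 of the 17 were hosts in replicates 2, 3 and 4, a mean of 52.9% ± 11.8 (SD, n = 3), against 8.83% ± 2.1 for all eligible protein-coding genes. Among genes of the upper length class, 7 of the 10 listed genes were hosts, against 18.8% of all. The 17 genes hold 1.44% of eligible sequence and held 23 of the 241 peaks, or 9.54%. This list and all the lists below were made with earlier results of these data known, so their counts are descriptions.

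Among nuclear receptor genes of the ecdysone list, Eip75B and Hr4 were described above. Hr39 held 1, with ranks 303 and 3724 in replicates 2 and 3 and no match in replicate 4. Hr3, an early-late receptor, held 1 that ranked 2899, 5036 and 1730, and Hr38 held 1 that ranked 2787, 4918 and 2220, so each was inside the top regions of replicate 4 alone.

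The coactivator of the ecdysone receptor, tai, held 4. The strongest ranked 478, 178 and 859 in replicates 2, 3 and 4, and the other 3 were not found in all. E23, an ecdysone-induced ABC transporter gene, held 2, and the stronger ranked 827, 575 and 570. The early ETS factor gene Eip74EF held 2: one ranked 504 in replicate 3 and 7809 in replicate 2, and the other ranked 785 and 950 in replicates 2 and 3, and neither had a match in replicate 4.

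The gene of the tagged factor, br, held 1, in sequence that also belongs to Mur2B. It ranked 1363 in replicate 2 and 1433 in replicate 4 and had no match in replicate 3. Eip63E, a cyclin-dependent kinase gene, held 1 that ranked 1671, 7709 and 3676. The eligible genes without one were EcR, the ecdysone receptor, Eip78C, ftz-f1, Eip93F, crol, ImpE1 and Eip63F-1.

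Only 4 of the 17, or Eip75B, Hr4, tai and E23, held a peak found in all 3 replicates, where the share of all eligible protein-coding genes was 3.89%. When peaks had to be found in both of the replicates left after leaving out 1, the number was 4 without replicate 2, 5 without replicate 3 and 5 without replicate 4, beside 4.62%, 5.69% and 4.85% of all eligible protein-coding genes. The number is smaller by over 1.5 times in each case, as the shares of all genes are. A promoter peak was also present at 8 of the 10 ecdysone hosts, against 55 of all 164 protein-coding hosts (33.5%).

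Genes of BMP signalling, which relays the ligand Dpp, and of activin signalling were listed together. They gave 5 hosts of 8 eligible genes (62.5%, exact interval 24.5 to 91.5), against 9.24% of all eligible protein-coding genes. In replicates 2, 3 and 4 there were 5, 3 and 6, where 8.56%, 6.87% and 11% of all eligible protein-coding genes were hosts. The hosts were the ligand gene dpp, the type I receptor gene tkv, the secreted BMP-binding protein gene cv-2, the nuclear factor gene shn and the inhibitor gene Dad. The peak in shn ranked 183, 476 and 280. That in dpp was near the limit in replicates 2 and 3, at ranks 2514 and 2158, and stronger in replicate 4, at 379. The stronger peak of tkv was found in replicate 2 alone, at rank 626. The antagonist gene sog, the activin receptor gene babo and tok had none. With peaks found in both replicates after leaving out 1, there were 3 hosts whichever replicate was left out, and 3 with peaks found in all 3. For all eligible protein-coding genes the shares in these settings were 4.62% to 5.69%, and 3.89%.

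Notch signalling genes gave 5 hosts of 10 eligible genes (50%, exact interval 18.7 to 81.3), against 9.24% of all eligible protein-coding genes. In the replicates there were 5, 5 and 3, where 8.56%, 6.87% and 11% of all were hosts. Peaks in the receptor gene N ranked 490, 722 and 517, and that in the ligand gene Delta ranked 802, 1115 and 776, so both were close in rank in every replicate. The peak in spen, a transcription cofactor gene, ranked 91 and 677 in replicates 2 and 3 and was not matched in replicate 4. The protease gene kuz and the coactivator gene mam had weaker ones. The ligand gene Ser and the glycosyltransferase gene fng were eligible and had none. With peaks found in both of the others, there were 2 hosts without replicate 2, 3 without replicate 3 and 3 without replicate 4. The shares of all eligible protein-coding genes in these settings were 4.62%, 5.69% and 4.85%.

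Wnt signalling genes gave 5 hosts of 11 eligible genes (45.5%, exact interval 16.7 to 76.6), against 9.24% of all eligible protein-coding genes. In the replicates there were 5, 2 and 5, where 8.56%, 6.87% and 11% of all were hosts. The coreceptor gene arr held one that ranked 354, 492 and 613. The receptor gene fz2 held 2, of which the stronger ranked 544, 479 and 1423. The genes fz, dlp (a glypican) and nkd (an inhibitor) were the others, and the ligand genes wg and Wnt4 had none. There were 2 hosts without replicate 2, 5 without replicate 3 and 2 without replicate 4, beside 4.62%, 5.69% and 4.85% of all. In the upper length class, 2 of 4 listed BMP genes, 5 of 5 listed Notch genes and 5 of 7 listed Wnt genes were hosts, against 18.8% of all genes in that class.

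The other lists gave lower shares of hosts. Of all eligible protein-coding genes, 9.24% were hosts in the optimal list, and 8.56%, 6.87% and 11% were in replicates 2, 3 and 4. Without 1 replicate their share was 4.62% to 5.69%. Of 12 BTB factor genes 3 were hosts, led by ab, beside lola and bab1 with none. Among 8 chromatin regulator genes 2 were, Psc and trx, beside Pc and ph-p with none. Of 10 Hox genes and cofactors 2 were hosts in the optimal list and in every replicate: Antp, whose stronger peak ranked 384, 730 and 514, and hth, beside lab and pb with none. Disc patterning genes gave 5 of 30 (16.7%), led by bi, dpp, inv and caup, with 4, 3 and 8 in the replicates and 3 without any 1 replicate, beside Dll and dac with none. Neural fate factor genes gave 2 of 13, sbb and brat, beside pros and grh with none. In the upper length class, 3 of 10 listed BTB genes and 2 of 5 listed Hox genes and cofactors were hosts. The same class gave 3 of 9 disc patterning genes and 2 of 7 neural fate genes, against 18.8% of all genes in it.

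Hippo and tissue polarity genes gave 2 of 9, fz and ds, beside wts and ft. The insulin and TOR list gave 1 of 5, InR, beside foxo and mTor. Blood cell and fat body genes gave 1 of 6, ush, beside lz and Hml. Egfr, FGF and Ras genes gave 1 of 13, Raf, beside Egfr and pnt. In the upper length class, 2 of 5 listed Hippo and tissue polarity genes and 1 of 2 insulin and TOR genes were hosts. The same class gave 1 of 1 blood cell and fat body genes and 1 of 6 Egfr, FGF and Ras genes, against 18.8% of all. The exact intervals of the lists in this and the preceding paragraph carry counting error only, and all reach below 9.24%. That share covers genes of every length, so setting the intervals against it takes no account of gene length.

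Neuronal genes were given by 2 lists. Of 42 eligible axon guidance and neuronal adhesion genes 1, kirre, was a host (2.38%, exact interval 0.0603 to 12.6), and 2, 1 and 2 were in replicates 2, 3 and 4. Of all eligible protein-coding genes, 8.56%, 6.87% and 11% were hosts in these replicates. The interval includes the 9.24% of all eligible protein-coding genes in the optimal list, a share that takes no account of gene length. These 42 hold 5.51% of eligible sequence and held 2.49% of the peaks, all 6 of them in kirre. In the upper length class the count was 1 of 32, against 18.8% of all genes. Fas1 and Fas2, adhesion genes, were among those with none.

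Ion channel and synapse genes gave 2 hosts of 24 (8.33%), dnc and Shal, beside para and cac with none. In the replicates there were 1, 0 and 1, where 8.56%, 6.87% and 11% of all eligible protein-coding genes were hosts. RNA-binding protein genes gave 2 of 20 (10%), pum and sm, beside mbl and bru1 with none, in 3.9% of eligible sequence. Muscle genes gave 1 of 13 (7.69%, twi, beside Mhc and sls). Epithelial and tracheal genes gave 1 of 15 (6.67%, knrl, beside trh and bnl). The shares of these lists lie near the 9.24% of all eligible protein-coding genes. In the upper length class they gave 1 of 14, 2 of 14, 1 of 5 and 1 of 7, against 18.8% of all. Cell death and autophagy genes gave 0 of 4 (hid and Atg1 among them), where an exact interval reaches 60.2%. None of the 20 listed cytosolic ribosomal protein genes was eligible.

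**Figure D4:**
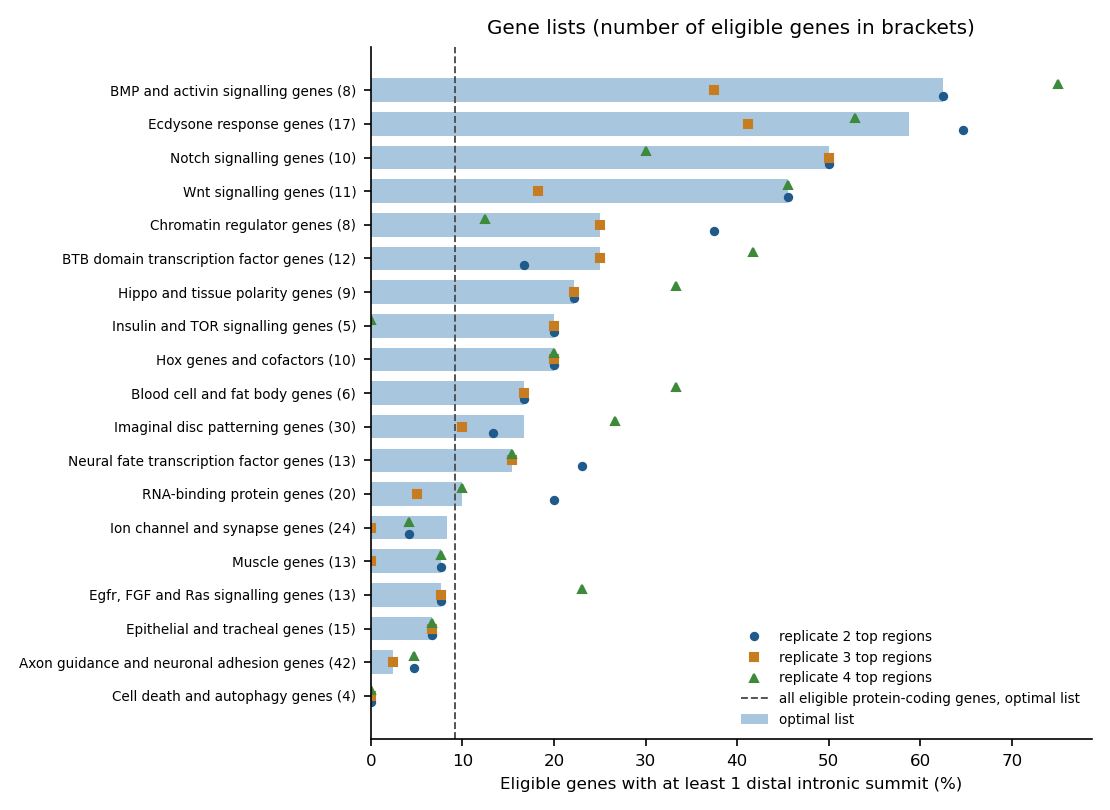
Percent of the eligible genes of each list that host a distal intronic summit (x axis), for the optimal list (bars) and the top regions of replicates 2, 3 and 4 (points); the number of eligible genes is in brackets. The dashed line is the 9.24% of all eligible protein-coding genes; BMP, ecdysone, Notch and Wnt genes stand at 45.5% or above and axon guidance genes at 2.38%.

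The letters around the summits were compared with windows of the same length 1000 bp to either side. Summit windows of distal intronic peaks held 36.4% G and C, against 40.5% in the flanks. In the replicates' own distal intronic top regions the summits were lower by 1.7, 4.86 and 3.1 points, a mean difference of -3.22 ± 1.58 (SD, n = 3, exact two-sided sign-flip permutation p = 0.25, the smallest that 3 replicates allow). The difference in the optimal list was -4.09 points at distal intronic peaks, -4.29 at intronic peaks 1 to 5 kb from a TSS, -4.55 at intergenic peaks and -7.64 at promoter peaks. With windows reaching 200 bp to either side it was -0.105 points at distal intronic peaks. Base composition moves with every word below, and its part was not tested.

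Among the Broad cores, the Z2 word CTATTT occurred in 22.4% of the windows at summits, with 13.3% in the flanks. The ratio was 1.69, and the ratios in replicates 2, 3 and 4 were 1.12, 1.75 and 1.34. AAACTA (Z3) occurred in 22.4% against 15.4%, with ratios of 1.24, 1.07 and 1.38 in the replicates. Both ratios were above 1 in 3 of 3 replicates (exact permutation p = 0.25 each, adjusted over the words tested 0.611). GTAAACA (Z4, also a forkhead core) was in 8.71% against 5.81%, with 2 of 3 replicates above 1, and AGACAA (Z1) in 10.8% against 13.9%, with 1 of 3 above 1. In the other classes the ratio of CTATTT was 1.15 at intronic peaks 1 to 5 kb from a TSS, 0.959 at intergenic peaks and 1.45 at promoter peaks, and that of AAACTA was 1.18, 1.41 and 1.5 in the same order. Any of the 4 cores was in 120 of the 241 windows (49.8%), against 41.7% of flanks, so 121 windows held none. The shares in all eligible sequence cut into windows of the same length were 16.5% for CTATTT and 16.3% for AAACTA.

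Of the other words, GAGAG, the repeat bound by the GAGA factor, occurred in 29.9% of the windows at summits and 21.4% of those in flanks. Its ratio was 1.4, and it was above 1 in 3 of 3 replicates, at 1.4, 1.21 and 1.21 (exact permutation p = 0.25, adjusted 0.611). The ratio of GAGAG was 1.15 at intronic peaks 1 to 5 kb from a TSS, 1.08 at intergenic peaks and 1.03 at promoter peaks. Windows at intronic peaks 1 to 5 kb from a TSS held it in 30.4%. With flanks 500 bp away its ratio at distal intronic peaks was 1.05. Runs of AAAAAA were in 46.9% against 36.9%, and in 48.9%, 45.3% and 45.6% of summit windows of the other classes in the same order. The ETS core CGGAAG was in 2 of the 241 windows (0.83%), against 4.98% of flanks, and lower than flanks in 3 of 3 replicates. Its ratio of 0.167 rests on these 2 windows: it was 0.524 with windows reaching 200 bp, and the mean over replicates was 0.538 without replicate 2, 0.425 without replicate 3 and 0.348 without replicate 4. The proneural E-box CAGCTG was in 4.98% against 8.09%. TATCGATA, the word of the promoter factor DREF, was in none of the 241 windows, which allows a share of up to 1.24%, and in 5.09% of windows at promoter peaks. It was also rare in the flanks of distal intronic peaks (1.24%) and in all eligible sequence (0.445%). Summits of intronic peaks 1 to 5 kb from a TSS held it in 0.234%, so its absence does not set distal intronic peaks apart.

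All words of 6 letters were then ranked on both strands, 559 of 2080 being present in at least 10% of the 241 windows. The highest ratio belonged to CAGTGC, in 55 windows: 22.8%, against 6.64% of flanks and 8.03% of all eligible sequence. The ratio was 3.44, and it was 2.72, 6 and 3.07 in replicates 2, 3 and 4. Summit shares in these replicates were 19.3%, 19.4% and 23.5%, and flank shares 7.09%, 3.24% and 7.68%. The ratio of 6 in replicate 3 thus goes with its low flank share. In the other classes the ratio was 1.67 at intronic peaks 1 to 5 kb from a TSS, 2.11 at intergenic peaks and 1.44 at promoter peaks. The shares of summit windows with the word were 16.4%, 23.9% and 14.8% in the same order. Intergenic summits thus held it at least as often as distal intronic ones, and their lower ratio goes with flanks at 11.3%. It was followed by GTGCAC with a ratio of 2.9, by ACTGAG with 2.78, by CACTGA with 2.73, by CTCTCA with 2.54, by AATACC with 2.47 and by ACTGTA with 2.37, while AATAGT stood at 2.26, the word ACATAG at 2.26 and the word CTGTAC at 2.26. Being picked as the highest of 559, these ratios are descriptions, and several of the words overlap each other in letters.

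CAGTGC was not spread evenly about the summit. Read along the strand of the word, 67 occurrences lay 3′ of the summit within 150 bp, against 27 on the 5′ side, a ratio of 2.48, with a median of 70 bp on the 3′ side. The replicates' own distal intronic top regions gave 61 against 24, 34 against 16 and 72 against 35. The bias was present in the other classes too, at 82 against 45 for intronic peaks 1 to 5 kb from a TSS, 77 against 18 for intergenic peaks and 220 against 162 for promoter peaks. So the pattern is not particular to distal introns, and intergenic peaks had the larger ratio, 4.28.

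The 8 occurrences on the 3′ side at the strongest summits of arms 2L, 3L, 3R and X show what stood before the word. Each line gives 30 bases, 5′ to 3′ on the strand of the word in dm6, from RefSeq, with the word in capitals.
CG42238, chr2L:21009424-21009453, minus strand: ttgctcttctcgCAGTGCatcacgaaaact
RhoGAP19D, chrX:20501125-20501154, minus strand: gtgacttgatttCAGTGCtgaaactgaagc
ush, chr2L:530324-530353, minus strand: aatcgatttttgCAGTGCaccgccaacaac
mew, chrX:13251427-13251456, minus strand: gatctttttctcCAGTGCattggcagtaag
Zdhhc8, chrX:9343911-9343940, minus strand: gaacctgttgcaCAGTGCtttcgcttgacg
CG12535, chrX:3408998-3409027, plus strand: agtgcttatgtgCAGTGCttttcagtacca
CG12535, chrX:3409077-3409106, plus strand: ttcaatttcgttCAGTGCatttggtctcga
Cad86C, chr3R:10834991-10835020, minus strand: atatttttctctCAGTGCtgctccttttgg
At ush, mew and Cad86C a longer run of T stands before the word, with shorter ones at RhoGAP19D and at the CG12535 line that starts at 3409077. Over all 67 occurrences, T was the base in 76.1%, 80.6% and 76.1% at 7, 6 and 5 positions before the word, and 39 (58.2%) had T at all of these positions. No factor was assigned to this word.

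**Figure D5:**
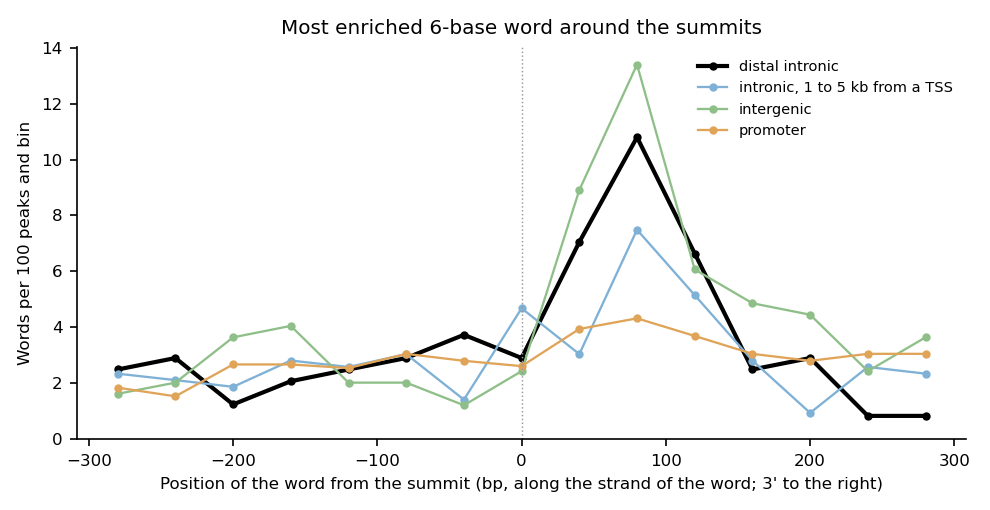
Occurrences of the word CAGTGC per 100 peaks in bins of 40 bp (y axis) by distance from the summit along the strand of the word (x axis, bp, 3′ to the right). The black line is the distal intronic peaks and reaches 10.8 per 100 peaks at 60 to 100 bp on the 3′ side; the intergenic line is higher there and the promoter line lower.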

How the data were processed

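The authors deposited ranked region lists for dm6 per replicate, for the pool, and an optimal list; per the notes deposited with them, alignments and a control entered the calling, and per the labels chromatin was sheared to a size range of 200 to 800 bp. The deposited signal value of each region is the authors' own; the deposited q-values (as −log10) and the dm3 lists were not used. Aligner, caller and the unit of signal: not given in the sources used here.

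Genes came from Ensembl release 115 (BDGP 6.54) without transposable elements and pseudogenes, and sequence from RefSeq. Summits were classed as promoter (1000 bp of a TSS), exon, intron or intergenic, with 1-based coordinates. Windows of 100 bp to either side of a summit, and equal flanks 1000 bp away, were searched for 25 words on both strands; members within 1 list are not replicates, so tests are exact sign-flip permutations over 3 replicates. Of 493 list symbols, 476 matched by symbol and 16 by synonym. The result of 1 list is not reported here. The 21 lists, the words and the members were chosen with earlier results of these data known. Named genes were the hosts of the 20 strongest peaks, the 15 with most summits, up to 4 hosts and 2 others per list, and the 10 top words of 6 letters; further ecdysone, BMP, Notch and Wnt genes were named after their values were seen; CAGTGC positions were described after seeing the data. Alternatives changed the annotation, thresholds, windows and replicates. The functions were tested on simulated data. Python 3.11.15, numpy 2.4.6, pandas 2.3.3, scipy 1.17.1 and matplotlib 3.10.9 were used.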

Additional observations from a re-analysis of the deposited data

How the results depend on the processing

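The 241 distal intronic peaks became 481 (19.2% of nuclear optimal peaks) with the distance set at 2000 bp and 106 (4.22%) at 10000 bp. Transposable elements and pseudogenes in the annotation gave a share of 8.41%, and distances to protein-coding TSSs only gave 11.7%. The upper 50% of the optimal list by signal held 108, and peaks found in all 3 replicates numbered 82; these and the settings that leave out a replicate keep fewer peaks by construction. Leaving out 1 replicate, with peaks found in both others kept, gave 102 to 123 peaks and a share of 8.17% to 9.98%.

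The share found in all 3 replicates was 17.8% with 50% as many top regions, 90% with all regions and 69.4% in the upper 50% by signal, and 42.3% to 51% when a replicate was left out. Differences in recovery changed sign: from intronic peaks 1 to 5 kb from a TSS to 1.3 points with all regions; from intergenic peaks to 0.0168 within 500 bp and 0.051 with all regions, and between -3.51 and 0.9 when a replicate was left out (0.9 without replicate 2 and 0.549 without replicate 3); from promoter peaks to 3.79 with all regions and between -8.06 and 5.74 when a replicate was left out. The cause was not tested.

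Hosts among eligible protein-coding genes were 4.9% in the upper 50% by signal, 3.89% for peaks found in all 3 replicates and 4.62% to 5.69% without 1 replicate. Hosts with a promoter peak were 26.2% with promoters of 500 bp (other eligible genes 13%) and 42.1% with 2000 bp (others 19.6%). They were 14.9% in the upper 50% by signal (others 9.36%), and 14% to 14.9% without 1 replicate (others 9.12% to 9.98%). The gap between hosts and others was thus smaller in these last settings. Distal intronic peaks with a neighbour were 17.8% within 2000 bp and 52.7% within 10000 bp. In the upper 50% by signal they were 25.9%, against 27.2% of promoter peaks, and without 1 replicate 22.1% to 23.6%. The number of words above a ratio of 1, which was 9, ran from 7 to 12 over the alternatives, and the difference in G and C content, -4.09 points, kept its sign but was -0.105 with windows reaching 200 bp. With windows reaching 200 bp, AAACTA stood at a ratio of 1 and CAGCTG at 1.04; GTAAACA stood at 0.923 in peaks found in all 3 replicates, and CTATTT stayed between 1.12 and 1.92. Under alternatives chosen after seeing the data, the ratio of CAGTGC on the 3′ side ran from 2.42 to 2.88, the share in the first intron from 55.8% to 59.8%, and axon guidance hosts remained 1 in number. No paired analysis was possible because there is no other group whose replicates could be paired with these 3; recovery, words and G and C content were compared within each replicate. Read depth is unknown, so no limit could be drawn from it.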
